A study of Mus musculus with 8 samples.

Results

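The small RNA libraries of 2 mouse cell lines were searched for 10 mature miRNAs. These come from 6 nearby hairpins of the imprinted Dlk1-Dio3 region on chromosome 12. They were chosen by name, as the rows of the miRNA column called mmu-miR-337-5p, mmu-miR-337-3p, mmu-miR-431-5p, mmu-miR-433-3p, mmu-miR-127-5p, mmu-miR-127-3p, mmu-miR-434-5p, mmu-miR-434-3p, mmu-miR-136-5p and mmu-miR-136-3p, and make up 10 of the 1978 mature miRNAs listed in the series. The rule reads names only and uses no measured value, but the 10 names were chosen with earlier results of these data known. Small RNA was sequenced from C2C12 cells, a mouse myoblast line that differentiates into myotubes, and from P19 cells, a mouse embryonal carcinoma line. The question put to these cells was how miRNA profiles differ when PERK is depleted, PERK being a kinase of the endoplasmic reticulum that phosphorylates eIF2α during the unfolded protein response.

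Short hairpin RNAs were used for the depletion, shPerk against Perk and shNC as the negative control. Both were present in C2C12 cells at day 0 and day 3 of differentiation and in P19 cells, and a further pair of libraries came from C2C12 cells with vector alone or overexpressing ATF4, the transcription factor translated downstream of PERK. According to the study's methods, C2C12 lines were infected with lentivirus and selected with puromycin; neither the labels nor those methods say the same of P19. Each of the 8 conditions has 1 library, so no spread between replicates can be given and no p-value below compares conditions. Perk itself cannot be checked in small RNA libraries.

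Imprinted genes are expressed from the copy of 1 parent only. In the Dlk1-Dio3 region the protein-coding genes Dlk1, Rtl1 and Dio3 are expressed mainly from the paternal chromosome, and the noncoding RNAs Meg3, the Rtl1 antisense transcript, Rian and Mirg, with the miRNAs cut from them, from the maternal one. Because the Rtl1 antisense transcript runs opposite the Rtl1 gene, miRNAs cut from it are fully complementary to the Rtl1 mRNA and can direct its cleavage. Rtl1 is a retrotransposon-derived gene needed in the placenta and in developing muscle, and the miRNAs of the region are known for high levels in embryo, placenta, brain and pluripotent cells.

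All 10 names matched a RefSeq mature sequence. The sequences are printed because their seeds decide whether the 10 can be read as 1 family. Each is written 5′ to 3′ with the seed, bases 2 to 8, in capitals.
mmu-miR-337-5p: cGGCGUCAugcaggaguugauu
mmu-miR-337-3p: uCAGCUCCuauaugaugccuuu
mmu-miR-431-5p: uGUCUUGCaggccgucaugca
mmu-miR-433-3p: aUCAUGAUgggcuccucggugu
mmu-miR-127-5p: cUGAAGCUcagagggcucugau
mmu-miR-127-3p: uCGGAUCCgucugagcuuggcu
mmu-miR-434-5p: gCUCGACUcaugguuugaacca
mmu-miR-434-3p: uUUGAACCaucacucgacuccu
mmu-miR-136-5p: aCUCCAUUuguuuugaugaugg
mmu-miR-136-3p: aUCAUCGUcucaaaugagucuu
There were 10 distinct seeds, and none was found in any other of the 1679 mouse mature miRNAs of the RefSeq table. The 10 miRNAs thus lie close together in the genome but are not a seed family.

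The 6 hairpins (GRCm38, plus strand) lie between bases 109585789 and 109595388 of chromosome 12, a stretch of 9600 bp, in the order Mir337, Mir431, Mir433, Mir127, Mir434 and Mir136. Distances from one of the 6 to the next ran from 727 to 4561 bp, and other miRNAs lie in some of these stretches. Those of miR-540 and miR-665 lie between Mir337 and Mir431, and miR-432 lies between Mir434 and Mir136. Rtl1 is annotated on the minus strand at chr12:109589193-109600330, with its coding sequence at chr12:109590172-109595403. Mir431, Mir433, Mir127, Mir434 and Mir136 lie opposite that coding sequence, and the complement of each of their 8 members was found once in the Rtl1 transcript. Mir337 (chr12:109585789-109585885) lies 3307 bp outside the annotated Rtl1 gene, and neither of its arms has a complementary site in the Rtl1 transcript. For the pair of miR-337 members the name "Rtl1 antisense" therefore holds only as a matter of position in the cluster.

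Sites in the Rtl1 coding strand are shown for the most abundant member and for the one with the largest knockdown difference, with the letters that pair with the seed in capitals.
Rtl1 site of mmu-miR-127-3p: agccaagctcagacGGATCCGa
Rtl1 site of mmu-miR-433-3p: acaccgaggagcccATCATGAt
The first covers codons 832 to 839 and the second codons 1201 to 1208 of the 1744 codons of Rtl1. No mRNA was measured in these libraries, so levels of Rtl1 were not analysed here.

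Summed, the members made up a sizeable share of the miRNA reads of P19 cells, most of it mmu-miR-127-3p, and were close to absent from C2C12 cells. Levels in P19 are given in reads per 1000000 counted on miRNAs (RPM), as deposited. In the P19 shNC library the 10 members summed to 63686 RPM, or 6.37% of all miRNA reads, and in the P19 shPerk library to 13989 RPM, or 1.40%. In C2C12 the same members had 22 reads in shNC and 16 in shPerk at day 0, and 14 in shNC and 18 in shPerk at day 3. Those libraries held between 8800977 and 11993448 miRNA reads, so the sums came to 1.94, 1.82, 1.17 and 1.91 counts per 1000000 (CPM). The P19 shNC sum was 32780 times that of C2C12 shNC at day 0, with an exact 95% Poisson interval on the C2C12 reads of 21650 to 52300. Against C2C12 shNC at day 3 the ratio was 54560 (32520 to 99790), and without mmu-miR-127-3p it was 56730 at day 0 (22160 to 208200). Both values lie above the first interval, but their own intervals overlap it. The interval covers counting error only, and the tables of the cell lines were scaled separately.

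**Figure D1:**
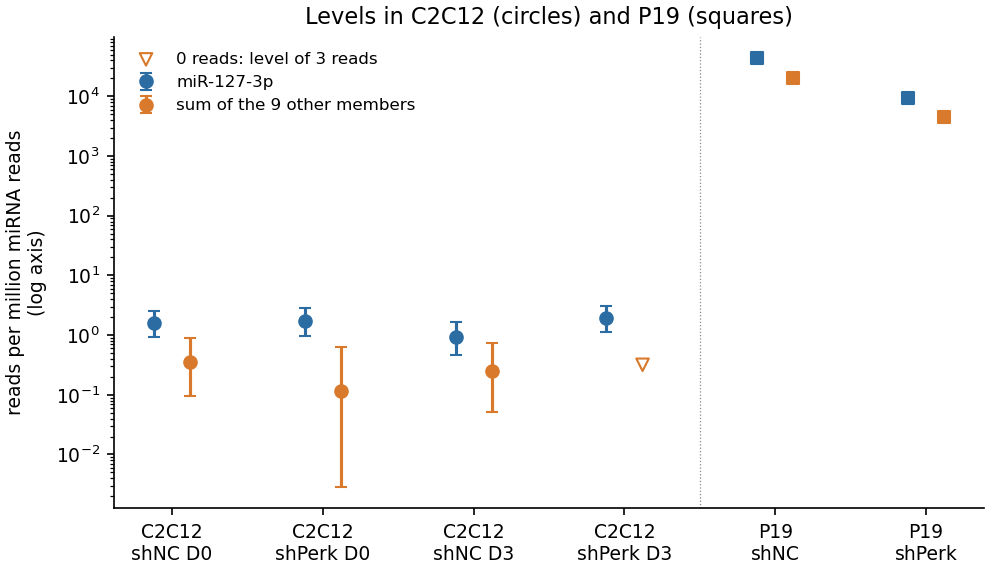
Level of miR-127-3p (blue) and of the other 9 members summed (orange) in the 4 C2C12 hairpin libraries, as CPM with exact 95% Poisson intervals, and in the 2 P19 libraries, as deposited RPM, on a log axis. Both quantities lie under 2 CPM in every C2C12 library and at 4537 RPM or more in both P19 libraries, and the open triangle stands at the level of 3 reads where no read was counted.

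Line identity was checked against miRNAs typical of each cell type. The muscle miRNAs miR-1a-3p, miR-133a-3p, miR-133b-3p and miR-206-3p summed to between 3840 and 88500 CPM in the C2C12 libraries, and the 3 of them listed in P19 to 34.5 RPM in shNC and 96.9 RPM in shPerk. The cluster of miR-302 and miR-367, which is typical of pluripotent cells, took 17.0% of the P19 shNC reads and 42.8% of the P19 shPerk reads, and had 1 read in C2C12 shNC at day 3 and 0 in the other 3 C2C12 libraries. The miR-290 to miR-295 cluster, the other miRNA cluster of pluripotent cells, took 16.7% and 13.5% in P19.

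Within the P19 shNC library the members spanned 879-fold. The highest was mmu-miR-127-3p, with 43643 RPM, which made it the miRNA of order 3 among 696 and 68.5% of the members' sum. Both arms of miR-434 followed at 5762 RPM (3p) and 5348 RPM (5p). Next came mmu-miR-337-5p with 3218 RPM, mmu-miR-433-3p with 2257 RPM and mmu-miR-431-5p with 1794 RPM. The arms mmu-miR-127-5p (757.8 RPM) and mmu-miR-136-3p (701 RPM) were close to each other, and mmu-miR-136-5p (155 RPM) and mmu-miR-337-3p (49.7 RPM) were the lowest. With 1 library, none of these neighbours in the order can be said to differ beyond replicate spread.

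All 10 members had lower RPM in the P19 shPerk library than in P19 shNC. The RPM of mmu-miR-127-3p was 9452 in shPerk, and it was of order 21 among 696. The level of mmu-miR-434-3p was 846 RPM, while mmu-miR-434-5p kept 2061 RPM and stood above it. The remaining levels in shPerk were 720 RPM for mmu-miR-337-5p, 257 RPM for mmu-miR-431-5p, 206 RPM for mmu-miR-127-5p, 205 RPM for mmu-miR-433-3p, 174 RPM for mmu-miR-136-3p, 60.4 RPM for mmu-miR-136-5p and 6.96 RPM for mmu-miR-337-3p. The order thus differed from that of shNC at 2 places, with mmu-miR-434-5p above its 3p arm and mmu-miR-433-3p below mmu-miR-431-5p and mmu-miR-127-5p. The gap between mmu-miR-127-5p and mmu-miR-433-3p in shPerk was 1.34 RPM, worth about 6 reads. In bulk RNA, fewer cells that make a miRNA and less of it in each cell cannot be told apart.

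**Figure D2:**
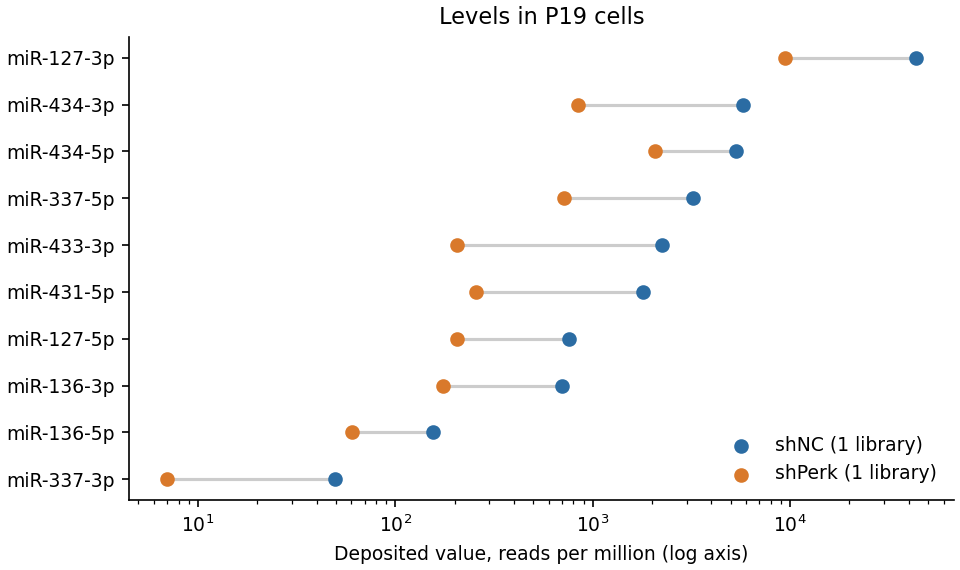
Deposited RPM of each member in the P19 shNC (blue) and shPerk (orange) libraries on a log axis, 1 library each, ordered by the shNC level. Every orange point lies left of its blue partner, and the longest line belongs to miR-433-3p, from 2257 to 205 RPM.

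RPM values share 1 fixed total per library, and in shPerk the cluster of miR-302 and miR-367 held 42.8% of it, against 17.0% in shNC. The median log2 ratio of the deposited RPM over all 696 miRNAs was -0.65. The difference was therefore computed with TMM factors, which centre the bulk of the miRNAs and moved every log2 ratio up by 0.605, to a median of -0.04. On this scale 123 miRNAs were higher and 123 lower by more than 1 on the log2 scale, a limit set in place of a test. The lower ones made up 17.7% of the miRNAs. Among the members, 8 of 10 were beyond that limit, all in the lower direction, and their median log2 fold change was -1.58. With RPM as deposited, 46 miRNAs were higher and 247 lower, and all 10 members were beyond the limit, with a median of -2.18.

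The largest difference was that of mmu-miR-433-3p, at -2.85 on the log2 scale with TMM factors, or 7.23-fold lower, and order 8 from the lowest of 696. A group of 3 followed closely. It consisted of mmu-miR-337-3p at -2.23, mmu-miR-431-5p at -2.20 and mmu-miR-434-3p at -2.16 on the log2 scale. The most abundant member, mmu-miR-127-3p, was 3.04-fold lower (-1.60), and mmu-miR-337-5p was 2.94-fold lower (-1.56). Smaller differences beyond the limit were those of mmu-miR-136-3p at -1.40 and mmu-miR-127-5p at -1.27. The members not beyond the limit were mmu-miR-434-5p at -0.77 and mmu-miR-136-5p at -0.76, which came to -1.38 and -1.36 with RPM as deposited. All members stayed negative with TMM, median of ratios, upper quartile and total scaling.

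**Figure D3:**
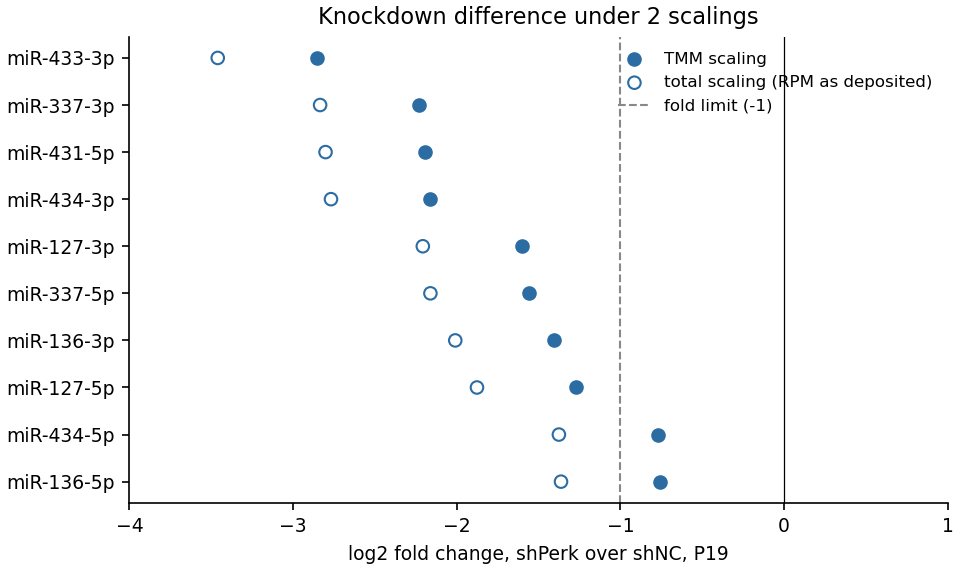
The log2 fold change of each member, P19 shPerk over shNC, with TMM factors (filled) and with RPM as deposited (open), beside the limit of -1 (dashed line). With TMM factors miR-434-5p and miR-136-5p lie right of the limit, and with RPM as deposited no member does.

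Low RPM values in a library are spaced by what 1 read is worth. That spacing was about 0.126 RPM in P19 shNC and 0.224 RPM in P19 shPerk, which implies about 7920000 and 4460000 miRNA reads. Only 89.2% and 91.9% of the values under 20 RPM came out whole, within 0.0051 RPM, so reads were not rebuilt for a count test. On that approximate scale mmu-miR-127-3p stood on about 345552 reads in shNC and 42121 in shPerk. The scarcest member, mmu-miR-337-3p, stood on about 393 and 31 reads, which makes its difference the least precise in terms of reads.

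Members that share a hairpin are cut from the same precursor, and their ratio within a library does not depend on scaling between libraries. The 5p arm of miR-434 made up 48.1% of the RPM of both arms in shNC and 70.9% in shPerk. The miR-136 hairpin went in the same direction, from 18.1% to 25.7%. In miR-127 the 5p arm is the minor one and made up 1.71% and 2.14%, and in miR-337 it is the major one, at 98.5% and 99.0%.

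The partners of the single-arm members were listed as well. The 5p share of miR-433 was 1.01% in shNC and 3.08% in shPerk, and that of miR-431 was 90.1% in shNC and 89.0% in shPerk. The 5p share was thus higher in shPerk in 5 of the 6 hairpins. Over all 201 hairpins with both arms above 0, it was higher in 56.7%, and over the other 31 hairpins of the Dlk1-Dio3 region in 51.6%. By the size of the difference between the arms, miR-433 was of order 14 and miR-434 of order 24 of the 201, while the other 4 hairpins ranged from 95 to 168. With both arms summed, miR-434 came to -1.33 and miR-136 to -1.26 on the log2 scale with TMM factors, both beyond the limit of -1.

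**Figure D4:**
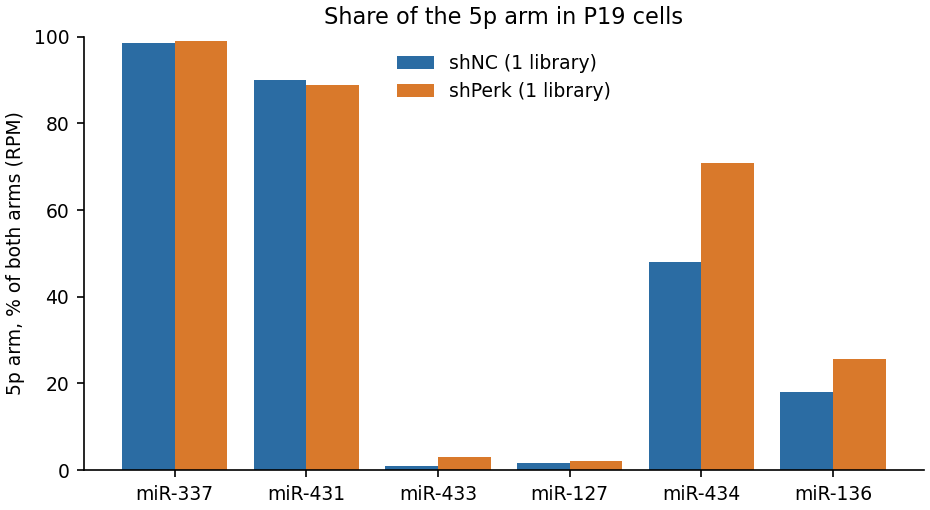
Share of the 5p arm in the summed RPM of both arms for the 6 hairpins, in the P19 shNC (blue) and shPerk (orange) libraries, 1 library each. The bars of miR-434 differ most, from 48.1% to 70.9%, and only those of miR-431 are lower in shPerk.

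The arms of 2 hairpins repeat a stretch of sequence. Both arms of Mir431 hold GUCUUGCAGG, which contains the seed of mmu-miR-431-5p, and both arms of Mir434 hold UUUGAACCA, which contains the seed of mmu-miR-434-3p. In the other 4 hairpins the longest stretch shared by the arms was 4 or 5 bases.

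The members did not stand apart from the rest of their region in P19. The 11 other listed miRNAs of the stretch from Meg3 to Rtl1 were all beyond the limit in the lower direction, with a median of -1.86 on the log2 scale with TMM factors. Their largest differences were those of mmu-miR-665-3p (381.4 to 36.6 RPM, -2.78), mmu-miR-770-5p (39.0 to 3.81 RPM, -2.75) and mmu-miR-770-3p (183 to 26.7 RPM, -2.18). In the stretch from Rian to Mirg, 63 of 70 were beyond the limit, none of them higher, and the median was -1.78. The largest there were mmu-miR-1188-5p (18.6 RPM in shNC) and mmu-miR-487b-5p (14.5 RPM in shNC), both listed at 0 in shPerk, and mmu-miR-3072-3p (203 to 14.6 RPM, -3.19).

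Taking the region as a whole, 91 of its miRNAs were listed, all 91 had a negative log2 fold change, and they held 82 of the 123 miRNAs beyond the limit in the lower direction (66.7%). Outside it, 41 of 605 miRNAs (6.78%) were that much lower, and the median was 0.16. The region fell in share from 18.5% of miRNA reads in shNC to 4.76% in shPerk, and the 10 members held 34.5% of the region's reads in shNC and 29.4% in shPerk. The members' quartiles of -2.19 and -1.30 lay close to those of the other 81, at -2.22 and -1.41. Among the 50 lowest of all 696 log2 fold changes, 43 came from the region and 4 of these were members.

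**Figure D5:**
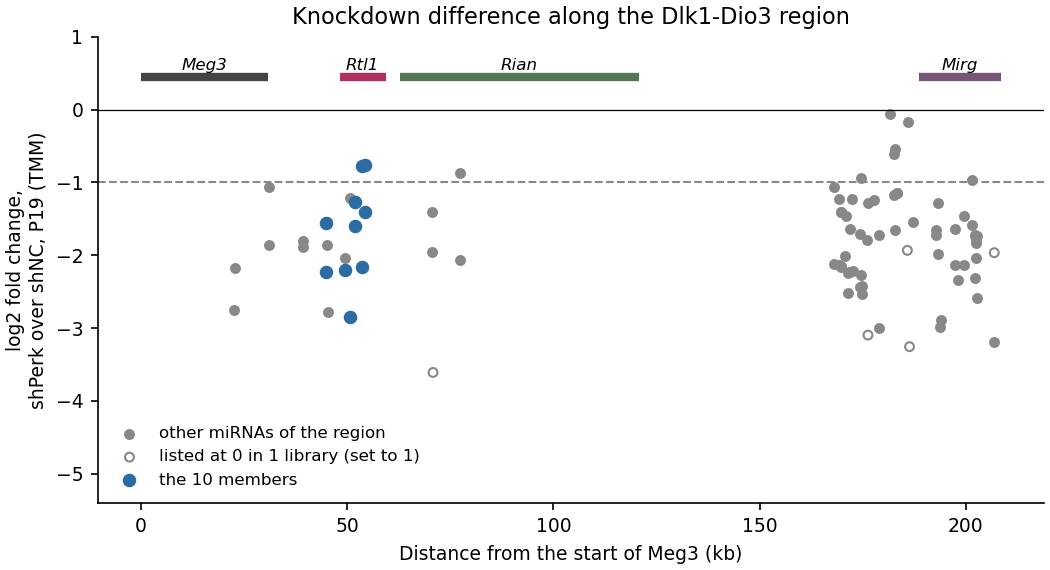
The log2 fold change with TMM factors (P19 shPerk over shNC) of the 88 region miRNAs with an annotated position, against distance from the start of Meg3 in kb, with gene extents as bars above. The 10 members (blue) lie between 44.8 and 54.4 kb within the same range of values as their neighbours (grey), and open grey points are the 5 miRNAs listed at 0 in 1 library, set to 1 RPM.

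Other cell-type markers differed between the P19 libraries too. Among miR-302 and miR-367, 7 of 10 arms were higher by more than 1 on the log2 scale with TMM factors, with a median of 1.75 (1.15 with RPM as deposited, where 1 of the 10 was negative). The miR-290 to miR-295 cluster did not share this difference. Of its 12 arms, 2 were higher and 2 lower beyond the limit with TMM factors, with a median of 0.08. With RPM as deposited its median was -0.52, and 4 arms were lower and 0 higher beyond the limit. Neuronal miRNAs went from a summed 3685 to 1523 RPM, with miR-9-5p at 3359 and 1429 RPM, miR-124-3p at 198 and 29.6 RPM, and miR-153-3p listed at 0 and at 5.38 RPM. With TMM factors the 4 listed had a median of -0.57 (-1.18 with RPM as deposited), with 1 lower and 1 higher beyond the limit. On that scale miR-9-5p stood at -0.63 and miR-9-3p at -0.51, both within the limit, and miR-124-3p at -2.13. The markers of muscle and of other differentiated cells were low in both libraries, with 3 and 3 of them listed, at sums of 34.5 and 41.6 RPM in shNC and 96.9 and 138 RPM in shPerk. With TMM factors, 3 of the 3 muscle markers and 2 of the 3 others were higher beyond the limit. Their medians were 1.68 and 1.78 (1.08 and 1.18 with RPM as deposited). The part of these differences in the members' values was not tested.

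By Euclidean distance of log2(value + 1) over the 4 C2C12 hairpin and 2 P19 libraries, on RPM and CPM values, the 5 non-members nearest to mmu-miR-127-3p were mmu-miR-541-5p (distance 2.72), mmu-miR-381-3p (2.78), mmu-miR-295-3p (3.02), mmu-miR-363-3p (3.03) and mmu-miR-293-3p (3.06). The first 2 belong to the stretch from Rian to Mirg and, at 16971 and 10220 RPM in shNC, were well under mmu-miR-127-3p. Other members had closer matches. In C2C12 these members had at most 2 reads per library, and their nearest miRNAs stayed at 0.318 CPM or less. A small distance therefore needs little more than similar levels in P19. The nearest to mmu-miR-127-5p (0.206) and mmu-miR-136-3p (0.289) was mmu-miR-329-5p, and the nearest to mmu-miR-431-5p (0.383) and mmu-miR-433-3p (0.483) was mmu-miR-1193-3p.

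For mmu-miR-434-3p the nearest was mmu-miR-323-3p (0.503) and for mmu-miR-337-3p it was mmu-miR-1193-5p (0.135). These 4 partners all lie between Rian and Mirg. The nearest miRNAs of mmu-miR-434-5p, mmu-miR-337-5p and mmu-miR-136-5p lay outside the region and were mmu-miR-291a-5p (0.387), mmu-miR-290a-5p (0.214) and mmu-miR-672-5p (0.325).

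In C2C12 the reads of the members were nearly all mmu-miR-127-3p. It had 18 reads in shNC and 15 in shPerk at day 0, and 11 in shNC and 18 in shPerk at day 3. These counts stand for 1.59 CPM (95% exact Poisson interval 0.942 to 2.51), 1.70 CPM (0.954 to 2.81), 0.917 CPM (0.458 to 1.64) and 1.91 CPM (1.13 to 3.02), and the 4 intervals overlap.

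The other 9 members had 4 reads together in shNC and 1 in shPerk at day 0, and 3 in shNC and 0 in shPerk at day 3. The member mmu-miR-433-3p had 1, 1, 2 and 0 reads in the same order of libraries. The members mmu-miR-127-5p, mmu-miR-136-3p and mmu-miR-434-3p had 1 read each in shNC at day 0, mmu-miR-136-5p had 1 read in shNC at day 3, and all 4 had 0 reads elsewhere. No read of mmu-miR-431-5p, mmu-miR-434-5p, mmu-miR-337-3p or mmu-miR-337-5p was counted in any C2C12 library. At this depth a count of 0, taken as up to 3 reads, allows a level of up to 0.250 CPM in shNC at day 3 and up to 0.341 CPM in shPerk at day 0. For comparison, mmu-miR-434-5p stood at 5348 and 2061 RPM in P19.

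Only mmu-miR-127-3p reached 1 CPM in at least 1 library of each C2C12 pair and could be tested there. The test was a two-sided exact binomial test on reads with TMM factors and Benjamini-Hochberg adjustment over all miRNAs, and it compares 2 libraries, not conditions. At day 0 the log2 fold change of shPerk over shNC was 0.23 (95% interval -0.86 to 1.30, adjusted exact p = 0.771), where 33.9% of 602 miRNAs were called in either direction by a log2 change beyond 1 with an adjusted p under 0.05. At day 3 it was 1.38 (0.23 to 2.62, adjusted exact p = 0.0174), which passed, where 41.7% of 575 miRNAs were called. The miRNA passed the filter of this pair only through shPerk, the library where it was higher. The call rests on 11 and 18 reads and was lost without the filter (1.31, adjusted exact p = 0.102), with total scaling (1.05, adjusted exact p = 0.0804) and with an assumed biological coefficient of variation of 0.2 or 0.4 (adjusted p = 0.126 and 0.499 by edgeR's exact test).

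Between day 0 and day 3 of shNC cells, mmu-miR-127-3p had a log2 fold change of -0.52 (95% interval -1.76 to 0.63, adjusted exact p = 0.426), where 26.1% of 593 miRNAs were called. It passed the filter of this pair only through day 0, where it was higher, so the filter favoured that direction. That comparison shares the day 3 shNC library, with its 11 reads, with the knockdown comparison at day 3. These intervals reach beyond 1 on the log2 scale at day 0 and beyond -1 between the days, so changes of that size were not excluded at this depth.

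The rest of the region was low in C2C12 as well. The 13 other names of the stretch from Meg3 to Rtl1 had 0 to 2 reads together in each library, and the 83 of the stretch from Rian to Mirg had between 33 and 65 reads together. The miR-290 to miR-295 cluster, which is typical of pluripotent cells and not of myoblasts, had 17 and 0 reads in shNC and shPerk at day 0, and 10 and 2 reads at day 3. Whether single reads of the members came from C2C12 cells or from other libraries was not tested.

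In the vector and ATF4 libraries, 605 miRNAs were listed and mmu-miR-127-3p was the only member among them. It stood at 2.74 RPM with the vector and was listed at 0 with ATF4, so no fold is given. A value listed at 0 can be anything under 1 RPM. Of the 605 miRNAs, 23 were listed at 0 with the vector and 42 with ATF4. The other 9 members were not listed, and of the rest of the region mmu-miR-543-3p (1.80 RPM) and mmu-miR-409-3p (1.13 RPM) were listed with the vector, both at 0 with ATF4.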

How the data were processed

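Small RNA sequencing covered 8 libraries, 1 per condition. According to the methods of the study, libraries were made and sequenced by a company, and reads were aligned with bowtie to the genome and known RNAs. The builds named in the submitters' processing notes are mm10 and GRCm38. The authors deposited read counts per mature miRNA for the 4 C2C12 hairpin libraries, with 1978 miRNAs listed, and RPM values for P19 and for vector and ATF4, in which values under 1 are listed at 0. The authors' fold change, p-value and q-value columns were not used. Whether the strand was used in counting, and how reads matching several miRNAs were shared, is not given in the sources used here. Some P19 names carry identical values, such as mmu-miR-669a-5p and mmu-miR-669p-5p (5024 RPM in shNC). Those of mmu-miR-299a-5p and mmu-miR-299b-5p are nearly so (201.1 and 200.6 RPM in shNC). Sums over names can therefore hold the same reads more than once. Libraries shared by the count tables held the same values.

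For counts, miRNAs with at least 1 CPM in 1 library of a pair were kept, TMM factors came from edgeR 4.0.16 (R 4.3.3), a prior count of 0.125 was used for fold changes, and reads were compared by a two-sided exact binomial test with Benjamini-Hochberg adjustment (scipy 1.17.1). A call needed a log2 change beyond 1 and an adjusted p under 0.05. For RPM, the log2 ratio with TMM factors was used with 0 set to 1, the limit was 1 on the log2 scale, and no test was run. Intervals are 95% and exact, cover counting error only, and reads without molecular identifiers are not independent molecules. Depth was 8800977 to 11993448 reads for counts, and for RPM about 4460000 to 12200000 reads, estimated from the spacing of low values. Both fits were run on simulated libraries that held counting error only and no spread between replicates. Sequences and positions came from RefSeq (GRCm38.p6), and gene models from GENCODE on GRCm38.

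Alternatives were other scalings (DESeq2 1.42.0 median of ratios, upper quartile, total), filters, values for 0, summed arms, a lower fold limit and assumed coefficients of variation. The 10 members, the other lists and the rule for named miRNAs were chosen with earlier results of these data known: all members in every library, the 3 largest differences of each other list of the region, the 5 miRNAs nearest to mmu-miR-127-3p and the nearest of each other member. mmu-miR-409-3p, mmu-miR-543-3p, the other imprinted miRNAs and the marker miRNAs with values in the text were named after their values were seen.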

Additional observations from a re-analysis of the deposited data

Results flagged for a closer look

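The knockdown value of mmu-miR-127-3p was negative in P19 and positive in both C2C12 pairs. Its log2 fold change, shPerk over shNC with TMM factors, was -1.60 in P19, from 43643 to 9452 RPM, and 0.23 and 1.38 in C2C12 at day 0 and day 3, on 11 to 18 reads. The 95% interval at day 0, -0.86 to 1.30, includes both directions, and the call at day 3 (0.23 to 2.62) was lost with total scaling, without the filter and at assumed coefficients of variation of 0.2 and 0.4. At day 3 mmu-miR-127-3p passed the filter only through shPerk, where it was higher, so the filter favoured that direction. Each cell line has 1 library per condition, so the difference between the cell lines was not tested.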

How the results depend on the processing

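The members' median log2 fold change in P19 stayed negative and beyond 1 under every alternative run, from -2.18 with total scaling to -1.53 with median of ratios factors, and no result changed direction. Counts over all miRNAs moved more. With total scaling 247 P19 miRNAs were lower and 46 higher, with a minimum of 10 RPM 75 were higher, and with a log2 limit of 0.58 there were 191 lower and 201 higher, against 123 and 123. The upper quartile gave 139 lower and 99 higher. All 10 members were beyond the limit with total scaling and with the limit of 0.58, and so were the 6 values left when the 4 hairpins with both arms among the members were summed. Assuming a coefficient of variation, an alternative chosen after seeing the data, gave 56 calls at day 0, 51 at day 3 and 7 between days in C2C12 at 0.4, and 93 between days at 0.2, against 204, 240 and 155. The call of mmu-miR-127-3p at day 3 was lost with total scaling, without a filter (adjusted exact p = 0.102), and at assumed coefficients of 0.2 and 0.4, over a range of adjusted p up to 0.499. The ratio of the P19 to the C2C12 sum was 54560 against day 3 and 56730 without mmu-miR-127-3p, against 32780. No library could be left out and no paired analysis was possible because each condition has 1 library. In C2C12, 9 members had 2 reads or fewer per library, which limits what can be said of their differences there.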

Other observations

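Of the 8 imprinted miRNAs of other chromosomes listed in P19, 1 was lower and 1 higher by more than 1 on the log2 scale with TMM factors, and their median was -0.44, while 4 were that much lower with RPM as deposited. Those of the Gnas region were mmu-miR-296-5p (1598 to 383 RPM, -1.46), mmu-miR-296-3p (3050 to 1219 RPM, -0.72), mmu-miR-298-5p (5764 to 2221 RPM, -0.77) and mmu-miR-298-3p (32.3 to 18.9 RPM, -0.17). The arms of miR-335, from an intron of Mest, stood at -0.16 (3p) and -0.18 (5p), with mmu-miR-335-3p at 5775 and 3408 RPM. In miR-483, from an intron of Igf2, the 3p arm was at -0.69 and the 5p arm at 1.52, on values of 2.15 and 4.04 RPM.

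An intron of Sfmbt2 holds a paternally expressed cluster with many repeated copies. The 64 listed miRNAs with names of that cluster had a median of 0.08, and 28 of 64 were negative with TMM factors. They were grouped by name, and their positions were not checked. With RPM as deposited the median was -0.53, 50 of 64 were negative and 7 were lower by more than 1 on the log2 scale. Their listed values summed to 5.64% of the RPM total in shNC and 4.52% in shPerk. Several names carry the same values, such as mmu-miR-466b-3p, mmu-miR-466c-3p and mmu-miR-466p-3p (each 2746 RPM in shNC and 1490 RPM in shPerk). These counts and shares therefore take a repeated value once per name.

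A pair of hairpins named on the opposite strand of the cluster, Mir3544 opposite Mir337 and Mir3071 opposite Mir136, had 0 reads for all 4 arms in the 4 C2C12 hairpin libraries, and none of these arms was listed in P19.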
